A study of Mus musculus with 9 samples.

Results

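The oocyte growth factor genes Gdf9 and Bmp15 were the only 2 genes, of 52025 listed in the deposited tables, that carried these names, and each was matched by its symbol. They were examined in RNA-Seq data from mouse ovaries around the time when fluid first collects in the follicles. The 9 libraries came from untreated juvenile females of the Kunming strain, with 3 libraries on postnatal day (PD) 14, 3 on PD15 and 3 on PD16. The labels give the tissue as ovary but the source as granulosa cells, the somatic cells that surround the oocyte, whereas the study describes whole ovaries. The study states 3 independent ovaries for each day, and whether tissue from several animals was combined is not given in the sources used here. The p-values measure the spread between these samples only.

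GDF9 and BMP15 are secreted proteins of the transforming growth factor beta (TGFb) superfamily that growing oocytes make. They act on the granulosa cells around the oocyte, where they promote proliferation, hold back luteinisation and shape the metabolism that the oocyte depends on. Both bind the type II receptor BMPR2. GDF9 then signals through the type I receptor TGFBR1 and SMAD2 or SMAD3, and BMP15 through BMPR1B and SMAD1, SMAD5 or SMAD9. The proteins can also pair with each other as a heterodimer.

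Gdf9 (ENSMUSG00000018238) lies on chr11:53431023-53437904 of GRCm38, on the plus strand. Bmp15 (ENSMUSG00000023279) lies on chrX:6314107-6320721 of the same build, on the minus strand. The GENCODE M21 annotation gives each a coding transcript of 2 exons, with 441 codons for Gdf9 and 392 for Bmp15. No other annotated gene overlapped either of them. The signalling part of these ligands is the C-terminal end of the precursor, so the last 100 codons before the stop codon are shown for both, in the second exon. Capitals mark the in-frame cysteine codons, which encode the residues that hold the folded ligand together. The Gdf9 stretch is chr11:53437242-53437541 on the plus strand, and the Bmp15 stretch is chrX:6315633-6315932 on the minus strand, both read from the GRCm38 genome from 5′ to 3′.
Gdf9: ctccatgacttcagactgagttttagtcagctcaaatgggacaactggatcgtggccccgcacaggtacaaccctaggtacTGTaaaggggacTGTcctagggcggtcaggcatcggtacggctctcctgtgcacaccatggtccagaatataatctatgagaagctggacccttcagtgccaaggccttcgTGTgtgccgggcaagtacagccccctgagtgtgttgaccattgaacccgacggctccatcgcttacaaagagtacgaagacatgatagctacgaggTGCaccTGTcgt
Bmp15: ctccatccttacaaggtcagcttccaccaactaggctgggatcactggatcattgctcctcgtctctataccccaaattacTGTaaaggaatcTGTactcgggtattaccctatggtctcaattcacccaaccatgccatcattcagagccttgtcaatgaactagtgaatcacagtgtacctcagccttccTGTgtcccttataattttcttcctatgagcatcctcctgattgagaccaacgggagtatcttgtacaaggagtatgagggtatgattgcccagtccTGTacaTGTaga

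Each stretch held 5 cysteine codons, and they stood at the same positions in both, namely codons 28, 32, 65, 97 and 99 counted from the first codon shown. A further cysteine codon lies just before the stretch, again at the same position in both genes. For 33 ligand genes of the superfamily, only the longest annotated coding sequence of each gene was read. Among these, Gdf9 and Bmp15 were the only ones with 6 cysteine codons in their last 110 codons. Bmp3 had 4 in the sequence used and the other 30 genes had 7, 8 or 9. Other transcripts of these genes were not read. The last 110 codons were otherwise diverged, with 179 of 330 bases identical (54.2%). The longest exact run that the Gdf9 and Bmp15 transcripts shared was 12 bases, so a read from one could hardly be counted for the other.

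Gdf9 was the more abundant of the pair in every library. Levels are given as FPKM, mapped fragments per kilobase of a gene and per M of a library's fragments. On PD14 its FPKM was 259, 206 and 260 in replicates 1, 2 and 3. On PD15 it was 274, 270 and 237, and on PD16 it was 209, 207 and 221. The PD16 libraries were thus all below the PD15 libraries, whereas PD14 replicate 2 lay as low as the PD16 libraries. The mean was 242 ± 30.6 (SD, n = 3) on PD14, 260 ± 20.2 on PD15 and 212 ± 7.68 on PD16.

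Bmp15 was lowest on PD14. Its FPKM was 48.2, 47.6 and 53.1 in the PD14 libraries, 61.0, 63.8 and 72.0 in the PD15 libraries, and 69.2, 66.2 and 60.8 in the PD16 libraries. All 6 libraries of the later days were above all 3 of PD14, and the PD15 and PD16 libraries overlapped. The mean was 49.7 ± 3.03 (SD, n = 3) on PD14, 65.6 ± 5.73 on PD15 and 65.4 ± 4.27 on PD16. These levels stood for an estimated 3311 to 6333 fragments of Bmp15 and 9545 to 14142 fragments of Gdf9 in a library. Counting error alone then came to at most 1.74% of a Bmp15 value and 1.02% of a Gdf9 value, which is below the spread between replicates.

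**Figure D1:**
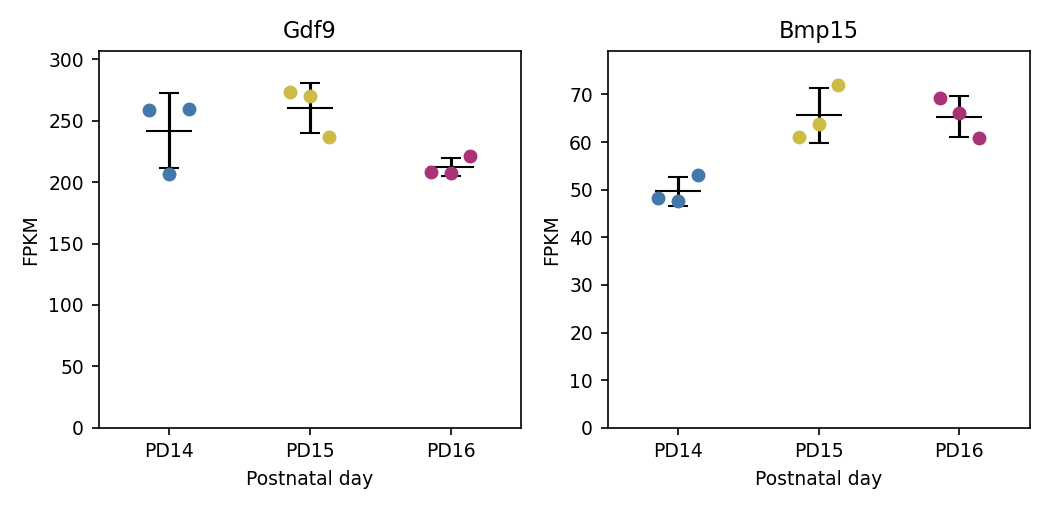
FPKM of Gdf9 and Bmp15 in each of the 9 libraries by postnatal day, with points for libraries and bars for the mean ± SD (n = 3). The PD14 points of Bmp15 all lie below those of PD15 and PD16, whereas the days of Gdf9 overlap except PD16 with PD15.

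The change of each gene between days was read from a limma model of log2(FPKM + 1) over 15495 genes, with Benjamini-Hochberg adjustment over all of them. Bmp15 rose between PD14 and PD16 by 0.39 on the log2 scale (SE 0.08, 95% confidence interval 0.21 to 0.57, limma adjusted p = 0.0331), and 2.36% of all genes tested were called higher in this comparison. The difference between PD15 and PD14 was the same size, 0.39 (SE 0.08, interval 0.21 to 0.58), but did not pass (limma adjusted p = 0.0745). The percentage of genes called higher there was 0.336%, and 0.342% were called lower. Between PD16 and PD15, Bmp15 differed by -0.0041 (limma adjusted p = 0.989). Over the 3 days together, Bmp15 differed at a limma adjusted p of 0.0447.

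The call for Bmp15 was close to the threshold. The adjusted p of limma for PD16 against PD14 was 0.0991 without PD14 replicate 1, 0.0805 without PD14 replicate 2 and 0.0714 without PD14 replicate 3. It was 0.0515 without PD15 replicate 2, 0.113 without PD16 replicate 1 and 0.0870 without PD16 replicate 2. With all libraries but no filter on low values it was 0.0786. The difference itself stayed between 0.35 and 0.44 in these refits. An exact permutation test of Bmp15 gave the smallest p that 3 against 3 libraries allow, 0.1 (two-sided), for PD15 and for PD16 against PD14. Libraries of a later day that all lay above PD14 were found for 10.4% of all genes tested on PD15 and 15.0% on PD16. Over the 280 groupings of the libraries into 3 days, the exact permutation p of Bmp15 was 0.0321, without adjustment for the exact tests of pairs of days.

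No difference of Gdf9 between days passed the test. It was 0.11 on the log2 scale for PD15 against PD14 (SE 0.11, interval -0.13 to 0.35, limma adjusted p = 0.670) and -0.18 for PD16 against PD14 (interval -0.42 to 0.06, limma adjusted p = 0.351). For PD16 against PD15 it was -0.29 (interval -0.53 to -0.05, limma adjusted p = 0.251). The exact permutation p of Gdf9 for that last pair was 0.1, the smallest possible, and 9.73% of all genes tested had PD16 libraries that all lay below those of PD15. In that pair 0.297% of all genes were called lower. Without PD14 replicate 2, the low library of its day, the difference of Gdf9 was 0.0020 for PD15 and -0.29 for PD16, both against PD14. Over the 3 days, the exact permutation p of Gdf9 was 0.132. In ovary RNA, fewer oocytes and less RNA per oocyte cannot be told apart.

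The balance between the genes was followed as the ratio of their FPKM within each library, in which library depth cancels. Gdf9 exceeded Bmp15 by 5.36, 4.34 and 4.89 times in the PD14 libraries, by 4.48, 4.23 and 3.29 times in the PD15 libraries, and by 3.02, 3.13 and 3.64 times in the PD16 libraries. The PD14 and PD16 libraries were fully apart, and the PD15 libraries overlapped both. The mean ratio was 4.86 ± 0.515 (SD, n = 3) on PD14, 4.0 ± 0.629 on PD15 and 3.26 ± 0.332 on PD16. Its size depends on the gene lengths used for FPKM, 2031 bases of exon for Gdf9 and 3060 for Bmp15 in GENCODE M21, but its change between days does not.

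Turned round, the ratio of Bmp15 to Gdf9 was 0.58 higher on the log2 scale on PD16 than on PD14 (SE 0.12), a 1.49-fold difference. The exact permutation p was 0.1, the smallest possible. For PD15 against PD14 and for PD16 against PD15 the difference was 0.29 each, with an exact permutation p of 0.2. These sizes rested on single PD15 libraries, being 0.15 and 0.42 without PD15 replicate 3 and 0.38 and 0.20 without PD15 replicate 1. Over the 3 days, 71.2% of the sum of squares of this log2 ratio lay between days (exact permutation p = 0.0429). After Benjamini-Hochberg adjustment over these 4 exact tests it was 0.171 and did not pass. The unadjusted exact permutation p was 0.0964 without PD14 replicate 1, 0.0821 without PD14 replicate 3, 0.0643 without PD15 replicate 2 and 0.0857 without PD16 replicate 1 or without PD16 replicate 2.

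Across the 9 libraries, no relation between the levels of Gdf9 and Bmp15 was detected. Pearson's r of log2(FPKM + 1) was -0.14 (exact permutation p = 0.710) and Spearman's rho was 0.02 (exact permutation p = 0.982). Without PD14 replicate 2 and PD15 replicate 1, the libraries farthest from the Gdf9 median, r was -0.57. Within days, as deviations from the day means, r was -0.21. Leaving out single libraries gave r between -0.51 and 0.010.

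Oocyte transcripts other than these genes were used to place them. All 26 oocyte markers listed, among them the zona pellucida genes Zp1, Zp2 and Zp3, were above an FPKM of 1 in every library, so the libraries held oocyte RNA although their source is labelled as granulosa cells. The summed FPKM of the markers was 2067 to 2597 on PD14, 2663 to 2914 on PD15 and 1970 to 2115 on PD16. Their median log2 difference was 0.22 for PD15 against PD14, -0.17 for PD16 against PD14 and -0.37 for PD16 against PD15. The median over all genes tested was 0.0065 to 0.0093 in these comparisons. Of the 26, 1 rose between PD14 and PD15, against 0.336% of all genes called higher, and 2 fell between PD15 and PD16, against 0.297% called lower. None passed for PD16 against PD14. The differences were above 0 in 25 of 26 markers for PD15 against PD14, in 8 for PD16 against PD14 and in none for PD16 against PD15. Nlrp5, a maternal gene of the subcortical complex of the oocyte, rose between PD14 and PD15 by 0.76 and fell by 0.72 between PD15 and PD16 (limma adjusted p = 0.0377 and 0.0439). In refits that each omitted 1 library, its rise held in 3 of 9 (limma adjusted p up to 0.135, without PD14 replicate 3) and its fall in 2 of 9 (up to 0.138, without PD16 replicate 1). Zp2 fell by 0.61 between PD15 and PD16 (limma adjusted p = 0.0427), which held in 1 of 9 refits, with a limma adjusted p of up to 0.133 without PD16 replicate 1. Of the other markers, Kit, the receptor of the growth factor that granulosa cells send to the oocyte, differed by -0.21 for PD16 against PD14 (limma adjusted p = 0.143), and Ddx4, a germ cell RNA helicase, by -0.23 (limma adjusted p = 0.301).

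Between PD14 and PD16, Gdf9 stood in the middle of these markers, with a higher log2 difference in 13 of the 26 and a lower one in 13. Between PD14 and PD15, 19 markers had a higher difference than Gdf9 and 7 a lower one, and between PD15 and PD16 the counts were 8 and 18. For Bmp15 no marker had a higher difference between PD14 and PD16 or between PD15 and PD16. Between PD14 and PD15, 3 of 26 markers had a higher one. Between PD15 and PD16, however, Bmp15 itself differed by only -0.0041 and all 26 markers were below 0. In that comparison 8235 of the 15495 genes tested were above 0. The log2 level of Bmp15 relative to the marker mean was -0.07 ± 0.11 (SD, n = 3) on PD14, 0.10 ± 0.07 on PD15 and 0.45 ± 0.14 on PD16. The PD16 libraries were all above those of both earlier days. From PD15 to PD16 this relative level rose by 0.35, while the median difference of the markers was -0.37. A gene whose own level did not change would therefore also have risen relative to these markers. How many of all genes tested did so was not computed. The difference of the relative level of Bmp15 between PD16 and PD14 was 0.52 (SE 0.10), with an exact permutation p of 0.1, the smallest possible. Over the 3 days, 84.9% of its sum of squares lay between days (exact permutation p = 0.00714, adjusted over 4 exact tests 0.0286). With each library left out in turn, this exact permutation p was 0.00714 to 0.0179.

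Gdf9 relative to the same markers was 2.19 ± 0.04 (SD, n = 3) on PD14, 2.08 ± 0.17 on PD15 and 2.14 ± 0.02 on PD16, on the log2 scale. PD15 replicate 3 was lowest. The difference between PD16 and PD14 was -0.05 (exact permutation p = 0.1, the smallest possible). These days barely parted, with PD14 replicate 2 at 2.14594 and PD16 replicate 1 at 2.14591. Against the median of the markers, the exact permutation p of this difference was 0.3. Over the 3 days, the exact permutation p against the marker mean was 0.586. The choice of markers decided the direction. Against Zp1, Zp2 and Zp3 alone, the difference of Gdf9 between PD16 and PD14 was 0.14 and the exact permutation p over the 3 days was 0.00714.

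**Figure D2:**
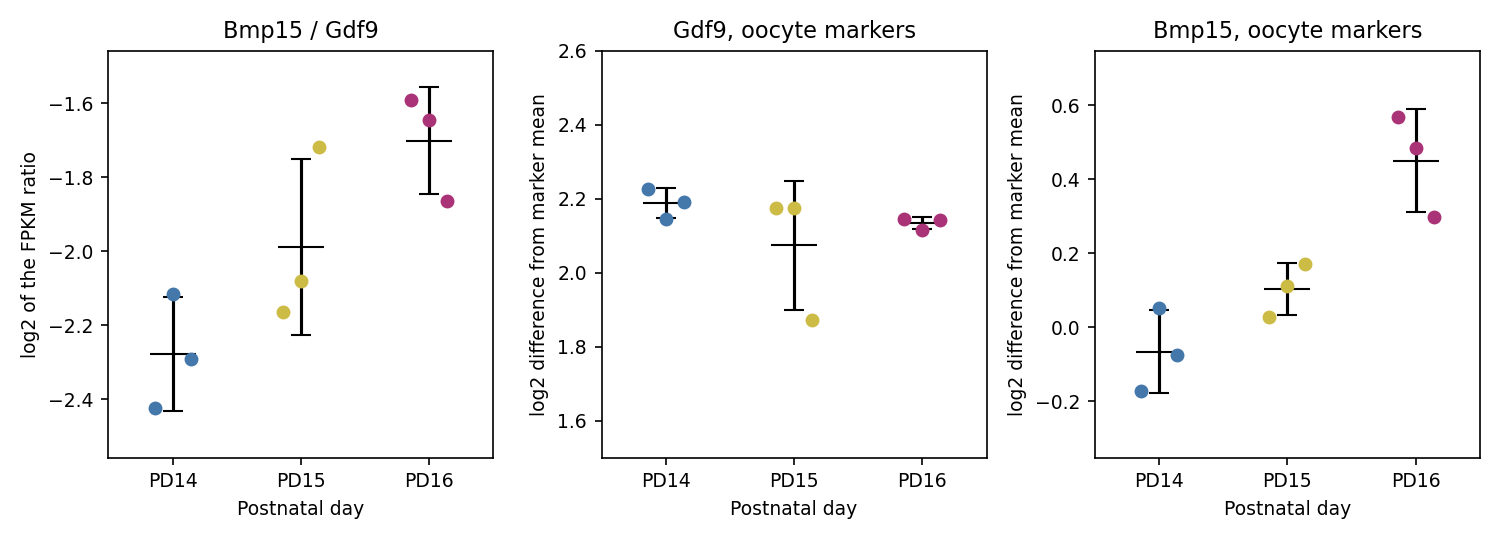
Log2 of the FPKM ratio of Bmp15 to Gdf9 (left) and log2(FPKM + 1) of Gdf9 (middle) and Bmp15 (right) minus the mean of 26 oocyte markers, by postnatal day, with points for the 9 libraries and bars for the mean ± SD (n = 3). The 3 vertical axes span the same log2 range, and the PD16 points lie above all PD14 points in the left and right panels.

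**Figure D3:**
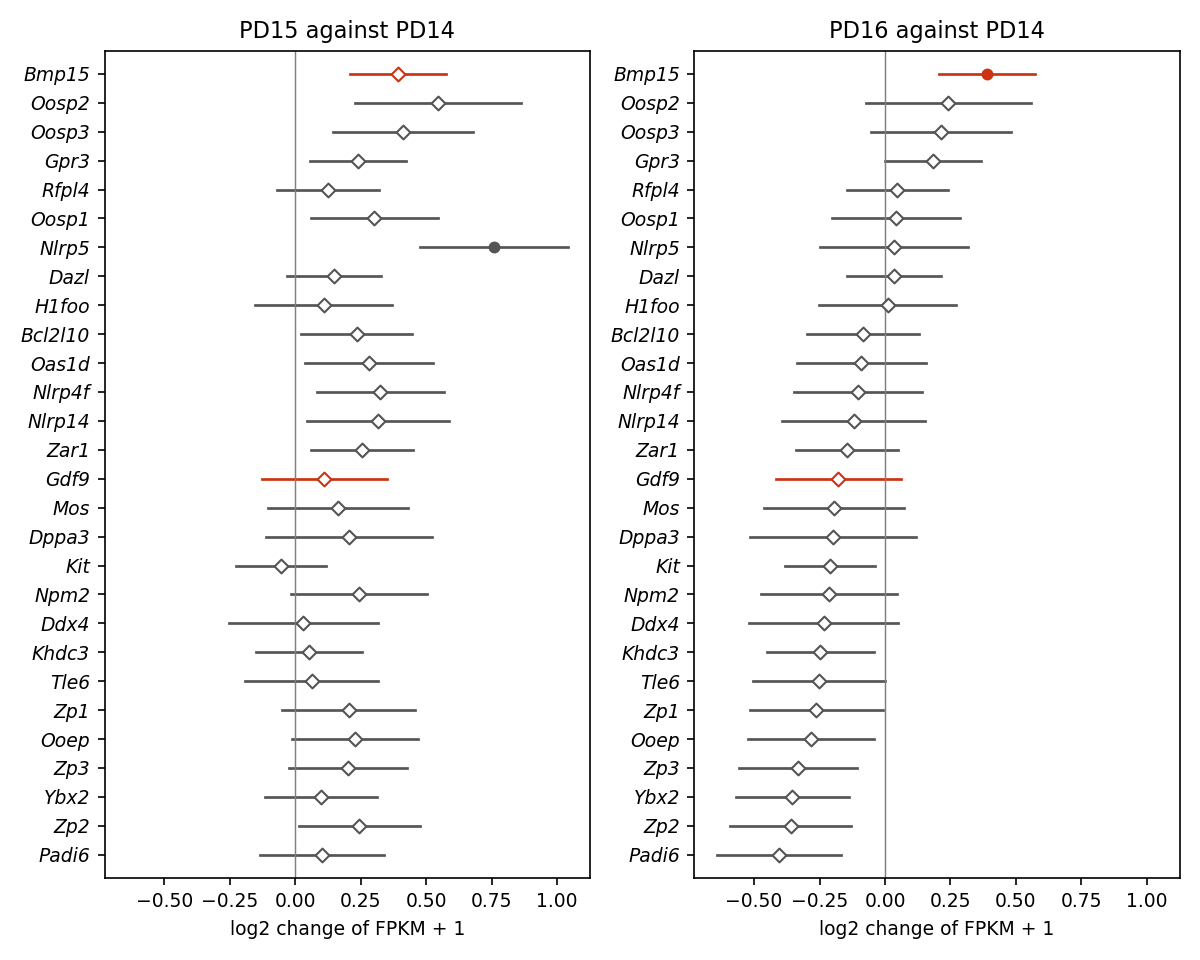
Log2 change of FPKM + 1 for Gdf9 and Bmp15 (red) and 26 oocyte markers (grey) for PD15 and PD16 against PD14, ordered by the change on PD16, with bars for the 95% confidence interval and filled circles for a limma adjusted p under 0.05. Bmp15 is at the top of the PD16 panel at 0.39, and Gdf9 is in the middle at -0.18.

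The genes most like each factor over the 9 libraries were taken by Pearson's r of log2(FPKM + 1) among 12485 protein-coding genes, as a description, since the libraries share their days. The nearest to Gdf9 were Parp12 (r = 0.98), Tex19.1 (0.98), Ccno (0.96), Tle6 (0.96), Gle1, Eif4e1b, Myo1a, Vrtn, Zbed3 and Zfp473 (0.95 for the last). Tle6 is a component of the subcortical maternal complex and 1 of the 26 oocyte markers, Eif4e1b encodes an oocyte form of the cap-binding protein, and Tex19.1 is a germ cell gene. Among the 100 genes nearest to Gdf9 were 7 oocyte markers, and the median r of the 26 markers with Gdf9 was 0.69, against -0.06 over all genes compared.

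The genes nearest to Bmp15 were Wdr36 (r = 0.97), Gabra3, Cenpo, Cep57, Thoc1, Nup37, Hat1, Haus3, Serpinb12 and Smim3 (0.94 for the last). Cenpo is a centromere protein, Cep57 and Haus3 act at centrosomes and the spindle, Nup37 is a nuclear pore protein and Hat1 a histone acetyltransferase. None of the 26 oocyte markers was among the 100 of 12485 genes nearest to Bmp15, and their median r with it was 0.18, against 0.037 over all genes compared. The highest r of a marker was 0.82 for Oosp2, an oocyte-secreted protein gene, and the lowest -0.66 for Kit. Gdf9 itself ranked 7591 of 12485 for likeness to Bmp15.

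Among the ligand genes of the superfamily, Gdf9 and Bmp15 were abundant. By mean FPKM over all libraries, Inha, the alpha subunit of inhibin, came first at 2152, and Gdf9 was the second of 33 at 238. Amh, the anti-Müllerian hormone of growing follicles, followed at 221 and Inhbb, an activin and inhibin subunit, at 189. On PD16 alone, however, the mean of Amh was above that of Gdf9. Bmp15 was the fifth at 60.2, next to Inhba at 56.9. These 2 genes also changed order, since the mean of Inhba was above that of Bmp15 on PD14 and below it on PD16. Gdf9 took 6.29% to 9.99% of the summed ligand FPKM of a library and Bmp15 took 1.51% to 2.43%. Only 17 of the 33 ligand genes, Gdf9 and Bmp15 included, had a mean FPKM above 1 on any day.

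Of the 15 other ligand genes tested, only Amh rose between PD14 and PD16, against 2.36% of all genes tested. It rose by 0.47 (SE 0.08, limma adjusted p = 0.0223), from 176 ± 9.31 (SD, n = 3) to 245 ± 10.5. The call held in 6 of 9 refits, and the limma adjusted p was 0.0504 without PD14 replicate 1, 0.0848 without PD14 replicate 3 and 0.0789 without PD16 replicate 1. Its PD15 level was 242 ± 19.4, a difference from PD14 of 0.45 that did not pass (limma adjusted p = 0.0522). The PD15 and PD16 libraries all lay above those of PD14, as they did for 10.4% and 15.0% of all genes tested. Gdf10, a BMP3-like ligand, rose by 0.92 between PD15 and PD16 (limma adjusted p = 0.0362), where 0.432% of all genes tested were called higher. This held in 3 of 9 refits, with a limma adjusted p of up to 0.127 without PD15 replicate 1. Inhba, the beta A subunit of activin and inhibin, stood at 87.0 ± 33.8 on PD14 and 39.8 ± 5.66 on PD16, a difference of -1.04 that did not pass (limma adjusted p = 0.0637). The median difference of the 15 was -0.05 for PD16 against PD14.

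**Figure D4:**
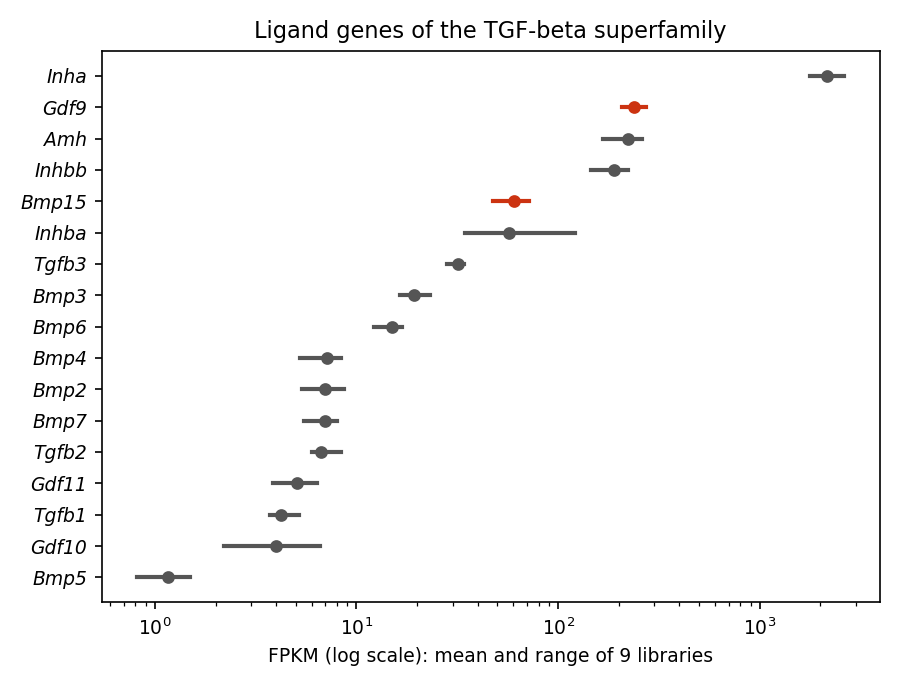
FPKM of the 17 tested ligand genes of the TGFb superfamily on a log scale, with points for the mean and bars for the range of the 9 libraries, and Gdf9 and Bmp15 in red. By this mean over all days, Gdf9 is second after Inha and close to Amh, and Bmp15 lies next to Inhba. The order of Gdf9 and Amh, and that of Bmp15 and Inhba, differed by day.

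Several transcription factors keep the genes of growing oocytes active, among them NOBOX and FIGLA. Of 10 such genes, all tested, 1 rose and none fell between PD14 and PD16, against 2.36% of all genes called higher and 1.89% lower, with a median difference of -0.17. The gene that rose was Taf4b, a germ cell subunit of the TFIID complex, from 5.61 ± 0.854 (SD, n = 3) to 11.5 ± 2.06 FPKM (log2 difference 0.91, SE 0.14, limma adjusted p = 0.0138). The call held in 7 of 9 refits, and the limma adjusted p was up to 0.0564 without PD14 replicate 3. The PD15 level was 9.82 ± 1.06, above all PD14 libraries as for 10.4% of all genes, and its difference from PD14 did not pass (0.71, limma adjusted p = 0.0583). Nobox stood at 52.2 ± 6.76, 51.4 ± 3.16 and 40.8 ± 2.05 on the 3 days (PD16 against PD14 -0.34, limma adjusted p = 0.0752). Figla differed by -0.23 (limma adjusted p = 0.466) and Sohlh1, a factor of early oocyte growth, by -0.43 (limma adjusted p = 0.0946) between the same days. Pou5f1, which encodes OCT4, fell by 0.45 between PD15 and PD16 (limma adjusted p = 0.0434), where 0.297% of all genes were called lower. This held in 1 of 9 refits, with a limma adjusted p of up to 0.133 without PD16 replicate 1.

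GDF9 and BMP15 are made as precursors and cut by proprotein convertases. Of 4 such protease genes, none passed the test between any pair of days, in which at most 2.36% of all genes were called higher and at most 1.89% lower. Pcsk6 was the most abundant, at 62.8 ± 3.00 FPKM (SD, n = 3) on PD14 and 50.9 ± 3.51 on PD16 (log2 difference -0.30, limma adjusted p = 0.191). Furin stood at 10.2 ± 0.767 and 10.8 ± 0.693 (0.07, limma adjusted p = 0.594), Pcsk5 at 16.6 ± 0.824 and 15.2 ± 1.83, and Pcsk7 at 6.0 ± 0.103 and 5.82 ± 0.318.

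The receptor genes that passed the test were highest on PD16. Bmpr2, the type II receptor of both factors, was 18.9 to 19.3 FPKM in the PD14 libraries, 19.0 to 20.3 in the PD15 libraries and 25.5 to 29.8 in the PD16 libraries. It rose by 0.54 between PD14 and PD16 (SE 0.07, limma adjusted p = 0.00877) and by 0.50 between PD15 and PD16 (limma adjusted p = 0.0213), where 0.432% of all genes were called higher. The former call held with each library left out in turn, up to a limma adjusted p of 0.0364, and the latter in 5 of 9 refits, with up to 0.0828 without PD15 replicate 1. Bmpr1b, the type I receptor of BMP15, was 18.5 to 19.7, 19.0 to 20.5 and 23.9 to 31.1 FPKM on the 3 days and rose by 0.47 between PD14 and PD16 (SE 0.09, limma adjusted p = 0.0240). That call held in 6 of 9 refits, and without PD14 replicate 3 the limma adjusted p was 0.0818. It was also lost without a filter on low values (limma adjusted p = 0.0627) and with only these days in the fit (0.0525). Tgfbr1, the type I receptor of GDF9, stood at 25.3 ± 1.76 (SD, n = 3), 26 ± 0.761 and 26.7 ± 0.875 (0.08 for PD16 against PD14, limma adjusted p = 0.487). Of the 5 receptor genes tested, 2 rose and none fell between PD14 and PD16, against 2.36% of all genes called higher and 1.89% lower. Bmpr1a stood at 28.1 ± 1.55 on PD14 and 32.4 ± 2.48 on PD16 (limma adjusted p = 0.220).

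Of the 5 tested SMAD genes, which carry the receptor signal to the nucleus, only Smad3 passed the test. Its FPKM was 49.3 ± 3.44 (SD, n = 3), 43.8 ± 3.82 and 36.7 ± 2.81 on the 3 days, and it fell by 0.42 between PD14 and PD16 (SE 0.09, limma adjusted p = 0.0316), where 1.89% of all genes tested were called lower. The call held in 3 of 9 refits, and the limma adjusted p was 0.105 without PD16 replicate 1. It was also lost without a filter on low values (limma adjusted p = 0.0786) and with only these days in the fit (0.0510). Smad2, which serves the same branch, stood at 18.8 ± 1.45 on PD14 and 18.7 ± 0.376 on PD16 (-0.00061, limma adjusted p = 0.996). Smad5, of the BMP branch, stood at 29.1 ± 0.711 and 27.6 ± 0.857 (limma adjusted p = 0.431), and the shared partner Smad4 at 36.7 ± 0.274 and 41.3 ± 2.01 (limma adjusted p = 0.118).

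None of the 7 inhibitor genes passed between any pair of days. In these comparisons at most 2.36% of all genes tested were called higher and at most 1.89% lower. The most abundant was Fst, which encodes the activin and BMP antagonist follistatin, at 116 ± 10.1 FPKM (SD, n = 3) on PD14, 108 ± 7.53 on PD15 and 144 ± 9.46 on PD16 (0.31 for PD16 against PD14, limma adjusted p = 0.0814).

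**Figure D5:**
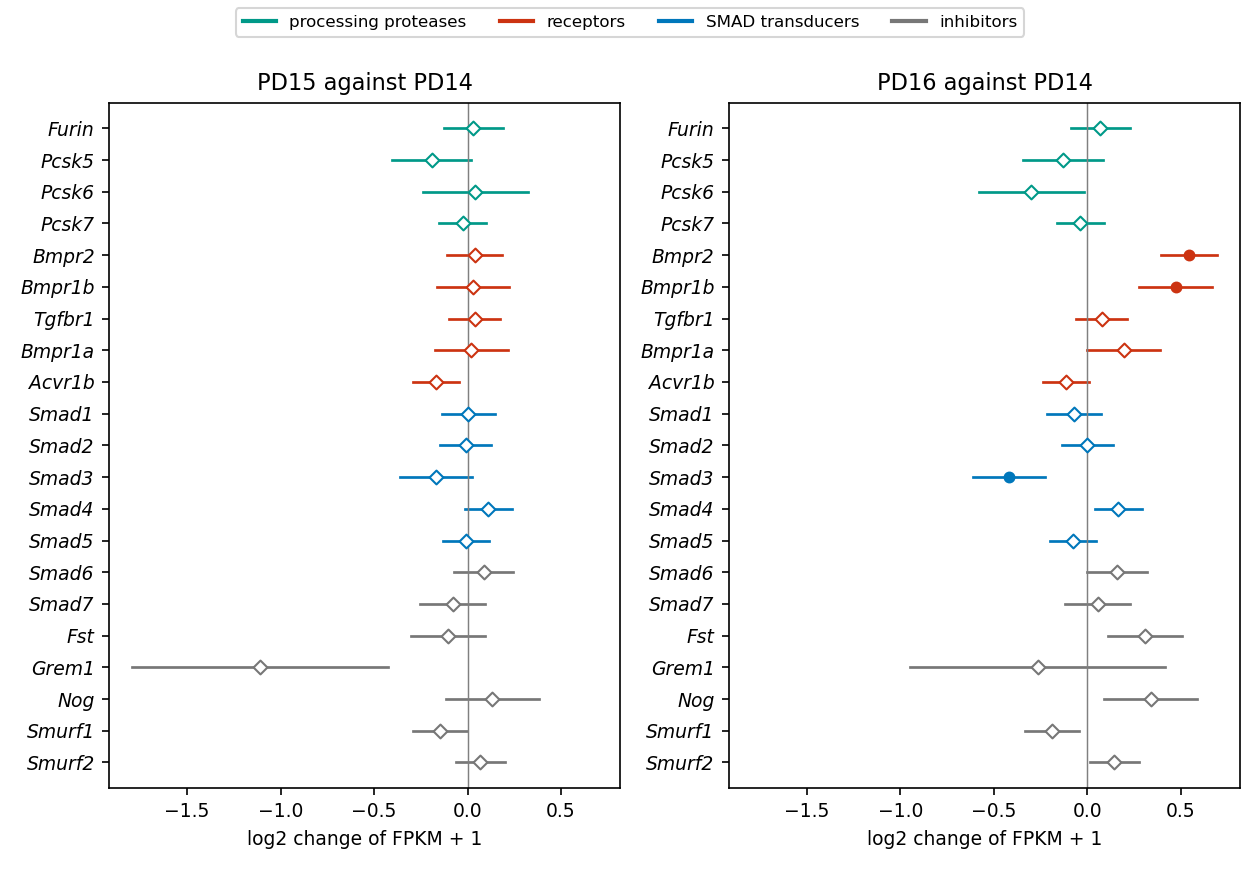
Log2 change of FPKM + 1 for PD15 and PD16 against PD14 of the tested genes for proteases, receptors, SMAD transducers and inhibitors, with bars for the 95% confidence interval and filled circles for a limma adjusted p under 0.05. Filled points are Bmpr2 and Bmpr1b above 0 and Smad3 below 0, all on PD16.

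Genes that GDF9 and BMP15 are known to regulate in granulosa and cumulus cells gave no common direction. Of 29 listed, 26 were tested, 3 rose and 2 fell between PD14 and PD16, against 2.36% of all genes called higher and 1.89% lower, and the median difference was -0.01. The genes that rose were Slc38a3, an amino acid transporter of cumulus cells (1.39, SE 0.24, limma adjusted p = 0.0222), Id3, a BMP-responsive inhibitor of differentiation (0.66, SE 0.11, limma adjusted p = 0.0177), and Amh, given above. Slc38a3 was 1.67 to 3.87 FPKM in the PD14 libraries and 7.05 to 11.2 in the PD16 libraries. The call of Slc38a3 held in 6 of 9 refits and that of Id3 in 7, with a limma adjusted p of up to 0.0799 and 0.0696, both without PD14 replicate 3. Without a filter on low values both were lost (limma adjusted p = 0.0678 and 0.0523). Kitl, the ligand of KIT, fell by 0.50 (limma adjusted p = 0.0494) and Tm7sf2, a sterol reductase of cholesterol synthesis, by 0.40 (limma adjusted p = 0.0256). The call of Kitl held in 1 of 9 refits, with a limma adjusted p of up to 0.132 without PD14 replicate 1, and that of Tm7sf2 in 5, with up to 0.0934 without PD14 replicate 3. The cumulus expansion genes Has2, Ptgs2 and Tnfaip6 were all below a mean FPKM of 1 on each day and were not tested.

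Markers of other cells were read beside these results. Between PD14 and PD16, 2.36% of all genes tested were called higher and 1.89% lower. Of 14 granulosa cell markers, 3 rose and 1 fell between these days, and their summed FPKM was 3290 to 3998 on PD14, 3111 to 3453 on PD15 and 3371 to 3909 on PD16. The markers that rose were Amh, the oestrogen receptor gene Esr2 (0.48) and Bex4 (0.68), and the marker that fell was the aromatase gene Cyp19a1 (-0.84). By quantitative PCR, the study itself reports a rise of Cyp19a1 on PD15 and PD16. The calls of Esr2, Bex4 and Cyp19a1 held in 8, 6 and 4 of 9 refits. Of 9 theca and interstitial cell markers none passed in that comparison, with sums of 1661 to 2293, 1222 to 1805 and 1262 to 1675.

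Blood cell markers summed to 117 to 158, 61.6 to 81.1 and 78.8 to 131 FPKM on the 3 days. Among the 7 tested, the median difference was -0.91 for PD15 against PD14, where the haemoglobin gene Hba-a1 fell by 1.35 (limma adjusted p = 0.0381) and 0.342% of all genes were called lower. For PD16 against PD14 the median was -0.45 and 6 of the 7 were below 0, and the exception, the lysozyme gene Lyz2, rose by 0.74 (limma adjusted p = 0.0286). The call of Hba-a1 held in 2 of 9 refits and that of Lyz2 in 4. Of 5 oviduct and epithelial markers tested, the keratin genes Krt8, Krt18 and Krt19 fell between PD14 and PD16, by 0.48, 0.45 and 0.42, and these calls held in 6, 8 and 3 of 9 refits. None of the 8 stromal markers passed. No marker of these lists was at 0 in every library, and their part in the changes of Bmp15, the receptors and the targets was not tested.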

How the data were processed

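RNA of mouse ovaries was sequenced from libraries made with the NEBNext Ultra kit. The authors deposited 1 table of FPKM for each of 9 libraries, and no further scaling was applied to them. The submitters' processing notes name HISAT2 2.0.5 and mm10, and the counting tool and annotation are not given in the sources used here. GENCODE M21 (GRCm38) supplied coordinates, exon lengths and sequences, and 50376 of 52025 identifiers matched. From the step of a single fragment in the low FPKM, of which 95.8% to 96.7% were whole within 0.05, the depth was 20.4 to 28.7 M fragments per library (median 24.2 M).

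The 15495 genes whose mean FPKM exceeded 1 on any day were tested with limma 3.58.1 in R 4.3.3 on log2(FPKM + 1), with an intensity trend, all 9 libraries in 1 model and Benjamini-Hochberg adjustment at 0.05. A log2 change is on this scale and understates that of low genes. Ratios, relative levels and single genes were compared by exact permutation tests, two-sided for pairs of days and one-sided for the 3 days. In data simulated for PD16 against PD14, 54.5% of 200 genes changed by 0.5 on the log2 scale were recovered, 94.0% of those changed by 1 and 99.0% of those changed by 2. Other tools were SciPy 1.17.1, Biopython 1.88, pandas 2.3.3, Matplotlib 3.10.9 and NumPy 2.4.6 under Python 3.11.15.

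The members and gene lists were chosen with earlier results of these data known. The genes named were Gdf9 and Bmp15, the 10 protein-coding genes most correlated with each, genes of the ligand, transcription factor, protease, receptor, SMAD, inhibitor and target lists that passed in any comparison, otherwise up to 4 of the most abundant genes of such a list, the receptors Bmpr2, Bmpr1b and Tgfbr1, and the markers Zp1, Zp2, Zp3, Kit and Ddx4. Nlrp5, Oosp2, Esr2, Bex4, Cyp19a1, Hba-a1, Lyz2, Krt8, Krt18 and Krt19 were named after their values were seen. Other pseudocounts, filters, scalings, limma settings, a replicate block and each library left out were tried as alternatives. The result of 1 listed gene is not reported here.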

Additional observations from a re-analysis of the deposited data

How the results depend on the processing

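No difference of Gdf9 between days passed under any alternative tried. Bmp15 for PD16 against PD14 kept its direction in all 18 alternatives and passed in 10. It did not pass without a filter on low values (0.39, limma adjusted p = 0.0786) or with the replicate number as a block (0.39, limma adjusted p = 0.0749). Leaving out each library in turn gave 0.35 to 0.44 (limma adjusted p 0.0290 to 0.113). For PD16 against PD15 it gave -0.054 to 0.064 for Bmp15, which was 0.064 without PD15 replicate 3 and 0.047 without PD16 replicate 3. The correlation of Gdf9 with Bmp15 ranged from -0.51 to 0.010 with single libraries left out, and was 0.010 without PD14 replicate 1 and 0.0072 without PD16 replicate 1. The share of the ratio between days was 64.8% to 85.1% with single libraries left out. With the replicate block it was 71.2% (exact permutation p = 0.139). Against Zp1, Zp2 and Zp3 alone, Gdf9 differed by 0.14 for PD16 against PD14 and 0.25 for PD16 against PD15, with 75.6% of its sum of squares between days, and Bmp15 differed by 0.71 and 0.53.

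The counts of genes called, from which the percentages of all genes come, were less stable than the values of the members. For PD15 against PD14, 52 genes were called higher and 53 lower. These were 13 and 16 without a filter, 28 and 35 above an FPKM of 5, 22 and 25 with only the days compared, and 9 and 15 with the replicate block. For PD16 against PD14, 366 were called higher and 293 lower, which were 102 and 70 without a filter, 182 and 138 with only the days compared, and 133 and 94 with the replicate block. For PD16 against PD15, 67 were called higher and 46 lower, which were 12 and 12 without a filter and 29 and 27 with the replicate block. With single libraries left out, the counts ranged from 1 to 45 higher and 2 to 47 lower, from 55 to 361 higher and 37 to 299 lower, and from 8 to 68 higher and 6 to 60 lower in the 3 comparisons. The lowest counts for PD16 against PD14 were those without PD16 replicate 1. The cause of these shifts was not tested. Libraries with the same replicate number deviated from their day means with r between -0.21 and 0.16, and 2 of 9 libraries correlated best with their own number, so the numbers were not treated as pairs. Of the 24 calls of listed genes other than Bmp15, 19 were lost without a filter on low values (limma adjusted p 0.0523 to 0.125). The 5 that held were those of Bmpr2 in both comparisons, Esr2, Krt18 and Taf4b. With the replicate block 14 were lost (limma adjusted p 0.0511 to 0.103), among them Bmpr1b, Slc38a3, Id3, Smad3, Tm7sf2, Kitl, Bex4, Cyp19a1 and Gdf10. With only the days compared 9 were lost (limma adjusted p 0.0510 to 0.0749), among them Bmpr1b, Smad3, Tm7sf2, Kitl and Cyp19a1. Without an intensity trend 3 were lost, those of Kitl, Pou5f1 and the fall of Nlrp5. Kitl was also lost with a pseudocount of 0.1 or 0.01 and with median-ratio scaling. With 3 libraries a day, pairwise exact tests cannot go below 0.1.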
